A study of Mus musculus with 6 samples.

Results

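Inhibitory interneurons are the GABA-releasing neurons of the hippocampus, and they make up a minority of its cells. This report describes histone H4 lysine 5 acetylation (H4K5ac) at 10 genes that mark these cells. The genes were chosen by name as interneuron markers, and the rule uses no measured value, although earlier results of these data were known. They are 10 of 37273 annotated genes and of 22367 protein-coding genes. Gad1 and Gad2 encode the glutamate decarboxylases that make GABA, and Slc32a1 encodes the transporter that loads GABA into synaptic vesicles. Pvalb (parvalbumin, a calcium buffer), Sst (somatostatin), Vip (vasoactive intestinal peptide), Npy (neuropeptide Y) and Cck (cholecystokinin) encode proteins and peptides that name interneuron classes. Reln encodes reelin, a secreted glycoprotein of the extracellular matrix, and Lhx6 encodes a homeodomain transcription factor of interneurons born in the medial ganglionic eminence. Some of these genes, Cck and Npy among them, are not restricted to interneurons, and some pyramidal neurons also transcribe Cck.

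Acetylation of the tail of histone H4 loosens the contact between nucleosomes and DNA and is a mark of transcribed chromatin. In a piece of tissue, each gene is read from the chromatin of all cells together, so a gene that is active in few cells is read mostly from cells in which it is silent. For a ratio in whole hippocampus, fewer cells that carry the mark and less of the mark per cell cannot be told apart.

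Chromatin came from whole hippocampus of C57/BL6 mice, males by the study's methods, with an age of 6 months in the labels. Mice of the FC group were trained by contextual fear conditioning with a foot shock on successive days and were killed within 1 h of a later memory test, and mice of the CON group (context-only control) were handled alike without shock. Each group gave an H4K5ac-ChIP, an IgG-IP and an input library, hence 6 libraries with 1 per group and antibody. There was no biological replicate, so each interval below is an exact 95% interval that covers counting error only, and each comparison of FC with CON compares a pair of libraries and not the conditions. The libraries held 14549689 to 45673239 aligned reads, with 31605738 in FC H4K5ac-ChIP and 35962226 in CON H4K5ac-ChIP, and the IgG-IP libraries were the smallest. FC input differed from CON input in relation to GC content, and values are therefore also compared with the median of protein-coding genes within 1 percentage point of the same GC content.

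The upstream sequences of 4 genes are shown because these genes lay at the ends of the range over IgG-IP among the 10. The promoters of Cck and Gad2 were the highest in both groups, the promoter of Sst was the lowest in both groups, and Vip had the lowest gene body in FC. Each is the 250 bases before the transcription start site (TSS) of the longest coding transcript in mm9, written 5′ to 3′ on the strand of the gene. Cck lies at chr9:121404808-121405057 (minus strand), Gad2 at chr2:22477475-22477724 (plus strand), Sst at chr16:23890931-23891180 (minus strand) and Vip at chr10:4707324-4707573 (minus strand). Capitals mark the cAMP response element TGACGTCA or the TATA box TATAAA, searched on both strands.
Cck: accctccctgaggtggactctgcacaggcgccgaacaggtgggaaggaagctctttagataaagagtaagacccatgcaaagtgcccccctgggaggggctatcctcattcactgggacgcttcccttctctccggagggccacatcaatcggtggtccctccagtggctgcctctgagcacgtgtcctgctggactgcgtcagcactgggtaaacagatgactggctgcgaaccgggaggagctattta
Gad2: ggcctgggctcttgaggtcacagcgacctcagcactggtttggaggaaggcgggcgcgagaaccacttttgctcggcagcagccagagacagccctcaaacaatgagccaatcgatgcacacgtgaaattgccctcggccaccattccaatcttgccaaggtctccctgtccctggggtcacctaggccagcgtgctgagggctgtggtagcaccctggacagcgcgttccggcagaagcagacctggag
Sst: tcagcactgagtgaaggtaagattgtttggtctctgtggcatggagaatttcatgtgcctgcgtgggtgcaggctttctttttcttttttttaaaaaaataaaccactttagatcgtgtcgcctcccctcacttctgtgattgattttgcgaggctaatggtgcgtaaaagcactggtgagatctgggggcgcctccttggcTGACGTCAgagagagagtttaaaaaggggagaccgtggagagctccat
Vip: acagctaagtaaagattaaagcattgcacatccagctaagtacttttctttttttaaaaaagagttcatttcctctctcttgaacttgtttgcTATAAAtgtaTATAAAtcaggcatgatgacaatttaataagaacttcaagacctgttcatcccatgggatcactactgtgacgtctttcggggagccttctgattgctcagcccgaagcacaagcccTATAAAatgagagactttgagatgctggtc

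Of the 22362 protein-coding upstream windows of this length, 1.95% held TGACGTCA, 12.2% held TATAAA and 41% held the GC box GGGCGG. Among the 10 genes, TGACGTCA was found at Sst alone, from 48 to 41 bases before the TSS. TATAAA was found 3 times at Vip, the nearest from 30 to 25 bases before the TSS, and on the opposite strand at Gad1. GGGCGG was found at a single site at Npy (95 to 90 bases before the TSS) and at Lhx6 (146 to 141), and 6 times at Reln. Neither Cck nor Gad2 held any of these letters. The windows also differed in CpG content. Reln held 37 CpG and Npy 21, Gad2, Cck and Sst held 12, 9 and 8, Pvalb held 4 and Vip held 3, with a median of 9 over all protein-coding windows. A match is a description of the letters and not of a bound site.

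H4K5ac over the gene bodies of the interneuron markers was mostly below the level of protein-coding genes, with exceptions in FC. With reads counted over the gene body, from the first TSS to the last transcription termination site (TTS), 0 of the 10 genes reached 1.5-fold over IgG-IP in both groups, against 47.7% of protein-coding genes with at least 20 reads in each pair of libraries together. The median log2 ratio over IgG-IP, after scaling by depth, was 0.01 in the FC group and -0.27 for CON, and that of protein-coding genes with enough reads was 0.70 and 0.61. Gad1 (0.82), Slc32a1 (0.82) and Pvalb (0.80) lay above that median and above 1.5-fold in FC, and in CON they were at 0.32, 0.40 and 0.40. Without Sst, which had fewer reads, the medians of the other 9 were 0.12 and -0.17. All 10 genes lay at or below the 56.2 percentile of protein-coding genes in FC and the 38.2 percentile in CON. Of the 10, 9 had at least 20 reads in each pair, and Sst, whose gene body spans 1.26 kb, did not.

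**Figure D1:**
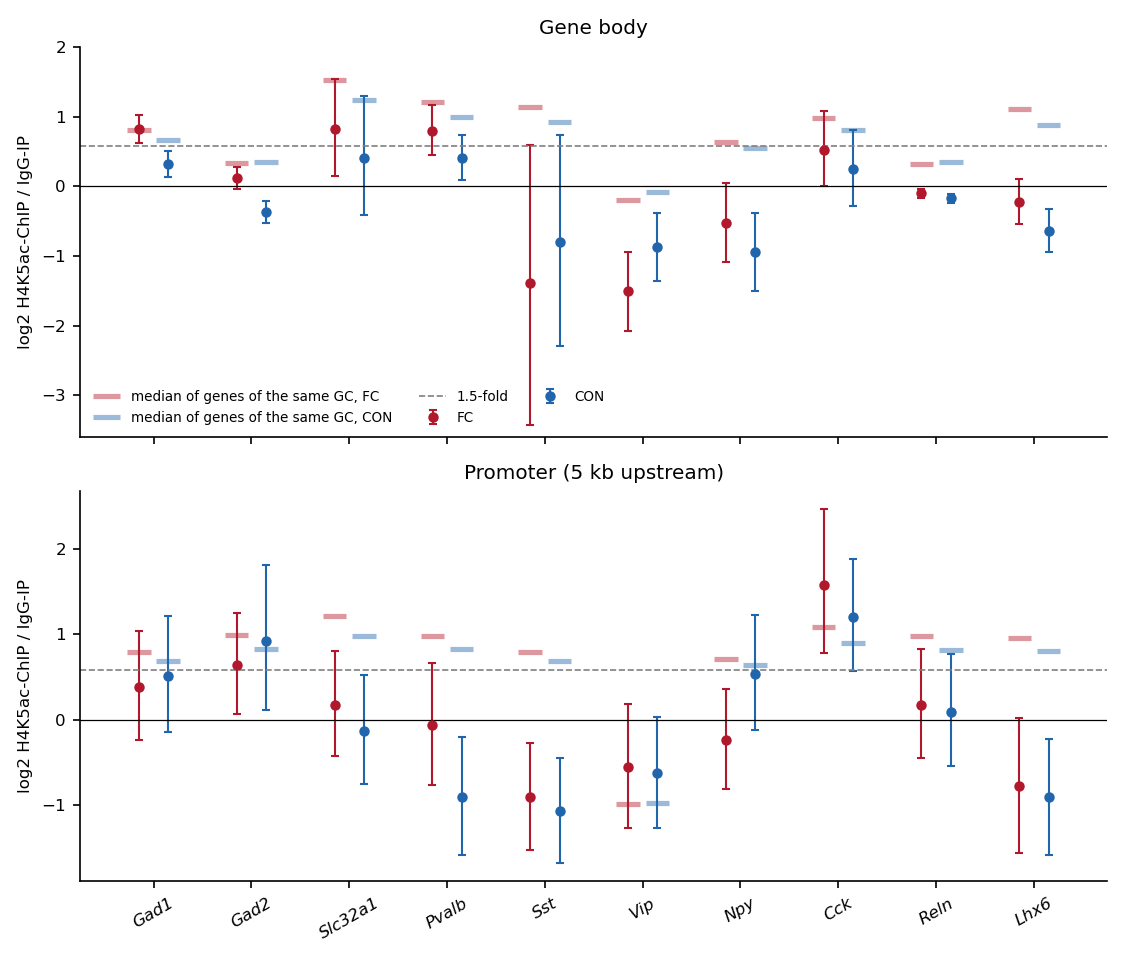
H4K5ac-ChIP over IgG-IP as a log2 ratio (y axis) of the 10 interneuron marker genes (x axis) in FC (red) and CON (blue), over the gene body (top) and the 5 kb upstream (bottom). Bars are exact 95% counting intervals of 1 library pair, pale dashes are the medians of protein-coding genes of the same GC content, and the broken line marks 1.5-fold. In the gene body no gene passes the broken line in both groups, and at the promoter Cck and Gad2 do.

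Of the genes of GABA synthesis and loading, Gad1 and Slc32a1 were among the higher of the 10 over IgG-IP and Gad2 was in the middle. Gad1 (chr2:70391129-70440071, plus strand) had a gene body density of 0.648 RPKM (reads per kb of gene, scaled to library size) in FC H4K5ac-ChIP and 0.521 in CON H4K5ac-ChIP, beside 0.368 and 0.419 in IgG-IP and 0.59 and 0.427 in input. Both H4K5ac-ChIP libraries were above both IgG-IP libraries, with a log2 ratio of 0.82 (0.62 to 1.02) in FC and 0.32 (0.13 to 0.50) in CON. Its GC-matched medians were 0.80 and 0.67, so Gad1 was close to genes of its base composition in FC and lay below them in CON. Over input the FC ratio of Gad1 was smaller, at 0.13, and that of CON was 0.29. The non-coding gene 1500002O10Rik overlaps the first 10286 bp of Gad1 on the opposite strand, and reads of ChIP carry no transcript strand, so these bases count for both.

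Gad2 (chr2:22477725-22549394, plus strand), the decarboxylase of axon terminals, was lower than Gad1 over IgG-IP. Its densities were 0.457 RPKM in FC H4K5ac-ChIP, 0.349 in CON H4K5ac-ChIP, 0.421 in FC IgG-IP and 0.453 in CON IgG-IP. The CON H4K5ac-ChIP library was the lowest of these 4. The FC ratio was 0.12 (-0.04 to 0.28) and the CON ratio was -0.37 (-0.53 to -0.22) (log2), and the intervals of Gad1 and Gad2 did not overlap in either group. Over input they overlapped in FC, with Gad2 at 0.10 (-0.02 to 0.22), and in CON Gad2 was at -0.40 (-0.53 to -0.28). Slc32a1 (chr2:158436494-158441484, plus strand), a gene of 4.99 kb, had an H4K5ac-ChIP density of 0.558 RPKM in FC and 0.273 for CON, beside 0.317 and 0.207 in IgG-IP. Its ratio of 0.82 (0.14 to 1.55) in FC and 0.40 (-0.42 to 1.29) in CON rested on 23 and 17 IgG-IP reads, and genes of its high GC content had medians of 1.53 and 1.24. Over input Slc32a1 was at 0.16 in FC and -0.38 in CON. The non-coding gene Gm14205 overlaps 911 bp of the Slc32a1 gene body on the opposite strand. Another non-coding gene, Gm14204 (chr2:158421208-158436459, minus strand), covers most of the 5 kb upstream of Slc32a1, so reads there count for both.

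Pvalb and Cck were the other genes with ratios above 0 in both groups. Pvalb (chr15:78021544-78036830, minus strand) had 0.642 and 0.571 RPKM in FC and CON H4K5ac-ChIP against 0.369 and 0.432 in IgG-IP, with log2 ratios of 0.80 (0.44 to 1.17) and 0.40 (0.08 to 0.73). Over input Pvalb was at -0.13 in FC and 0.43 in CON, so its place above the control in FC held for IgG-IP alone. Cck (chr9:121398943-121404807, minus strand) had 0.674 and 0.503 RPKM in H4K5ac-ChIP, the highest FC density of the 10, against 0.469 and 0.424 in IgG-IP. The Cck ratios were 0.52 (0.00 to 1.08) and 0.25 (-0.29 to 0.80). Slc32a1, Gad1, Pvalb and Cck thus took the first 4 places in both groups, and their intervals overlapped, so their order was not resolved. These places held for IgG-IP only, since over input Gad2 stood before Pvalb in FC and Reln and Sst stood before Slc32a1 in CON.

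The peptide genes Sst, Vip and Npy had negative ratios, which lay beyond counting error for Vip in both groups and for Npy in CON. Vip (chr10:4698927-4707323, minus strand) had 0.185 RPKM in FC and 0.265 in CON H4K5ac-ChIP against 0.524 and 0.484 in IgG-IP, and both H4K5ac-ChIP libraries lay below both IgG-IP libraries. The FC ratio was -1.50 (-2.07 to -0.95) and the CON ratio was -0.87 (-1.36 to -0.38) (log2), at the 4.93 and 10.1 percentiles of protein-coding genes. Over input Vip was at -0.80 (-1.31 to -0.31) in FC and -0.81 (-1.22 to -0.40) in CON, and FC IgG-IP itself was above FC input there, by 0.71 (0.25 to 1.16). The GC-matched median of FC IgG-IP over input was 0.50, within that interval. Vip is the most AT-rich of the 10. For H4K5ac-ChIP over IgG-IP, genes of the same GC content had medians of -0.20 and -0.08, still above the interval of Vip in both groups. Npy (chr6:49772709-49779506, plus strand) had 0.316 and 0.245 RPKM in H4K5ac-ChIP and 0.455 and 0.473 in IgG-IP, with ratios of -0.52 (-1.09 to 0.05) and -0.95 (-1.50 to -0.38). At Sst (chr16:23889667-23890930, minus strand) only 5 and 10 H4K5ac-ChIP reads and 6 and 8 IgG-IP reads were found, with ratios of -1.38 (-3.43 to 0.59) and -0.80 (-2.30 to 0.74), so that no difference from IgG-IP was detectable at this depth. Over input, which was deeper, Sst was at -2.23 (-3.95 to -0.87) in FC and -0.28 (-1.65 to 1.05) in CON.

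Lhx6 and Reln had flat or low H4K5ac. Lhx6 (chr2:35937470-35960928, minus strand) had 0.32 and 0.256 RPKM in H4K5ac-ChIP against 0.372 and 0.398 in IgG-IP, and ratios of -0.22 (-0.54 to 0.10) and -0.64 (-0.94 to -0.33). Over input Lhx6 was lower, at -0.99 (-1.21 to -0.78) and -0.82 (-1.07 to -0.57). Genes of its GC content had medians of 1.11 and 0.87, above its intervals in both groups. Reln (chr5:21390272-21850523, minus strand) is by far the longest of the 10 and held 5610 and 6139 H4K5ac-ChIP reads, so its interval is narrow. Its 4 densities lay between 0.371 and 0.418 RPKM, and its ratios were -0.10 (-0.17 to -0.04) and -0.17 (-0.24 to -0.11). Over 10 equal parts of the Reln gene body the ratio ran from -0.36 to 0.15 in FC and from -0.44 to 0.16 in CON.

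Beside genes of like GC content the low level was plainer than beside zero. The interval of the gene body ratio lay wholly below the GC-matched median for 7 of the 10 genes in FC and for 9 of 10 in CON, and above it for 0 in either group. The interval lay below the GC-matched median for 30.3% of protein-coding genes in FC and 31.0% in CON, and this share depends on gene length, since long genes have narrow intervals. The median difference from the GC-matched median was -0.59 in FC and -0.76 in CON. Taken over input, the 10 genes had a median of -0.11 in FC and -0.33 for the CON pair, and protein-coding genes had 0.20 and 0.48.

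Lists of other genes placed these values among the cell types of the hippocampus. Of 30 other interneuron genes (transcription factors such as those of the Dlx family, GABA metabolism, calcium buffers, receptors and channels), 29 were found in the annotation, and 5 of these reached 1.5-fold in both groups, with medians of 0.07 in FC and -0.04 in CON. Their highest gene in FC was Dlx2 at 2.20, which was at -0.12 in CON, and their lowest was Tac1 at -1.08 and -0.34. The 12 genes of excitatory hippocampal neurons, the majority neurons of the tissue, had medians of 1.02 and 0.93, and 9 of 12 reached 1.5-fold in both groups, from Camk2a at 1.31 in FC down to Neurod6 at -0.81. The 12 genes of other tissues, such as liver, lung and muscle, had medians of -0.08 and -0.13, with 2 of 12 at 1.5-fold in both groups, Sftpc the highest at 1.83 and Cyp7a1 the lowest at -1.80. The tissue's majority neurons were thus represented by marked genes in both groups, while the interneuron medians over IgG-IP lay closer to those of the genes of other tissues. Over input the 10 markers were at a median of -0.11 in the FC group and -0.33 for CON, while other interneuron genes were at -0.30 and -0.02. Beside these stood 0.31 and 0.50 for excitatory neurons and -0.59 and -0.49 for other tissues. Over input the markers thus lay closer to the excitatory neurons in FC, by a small margin, and closer to the other tissues in CON.

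**Figure D2:**
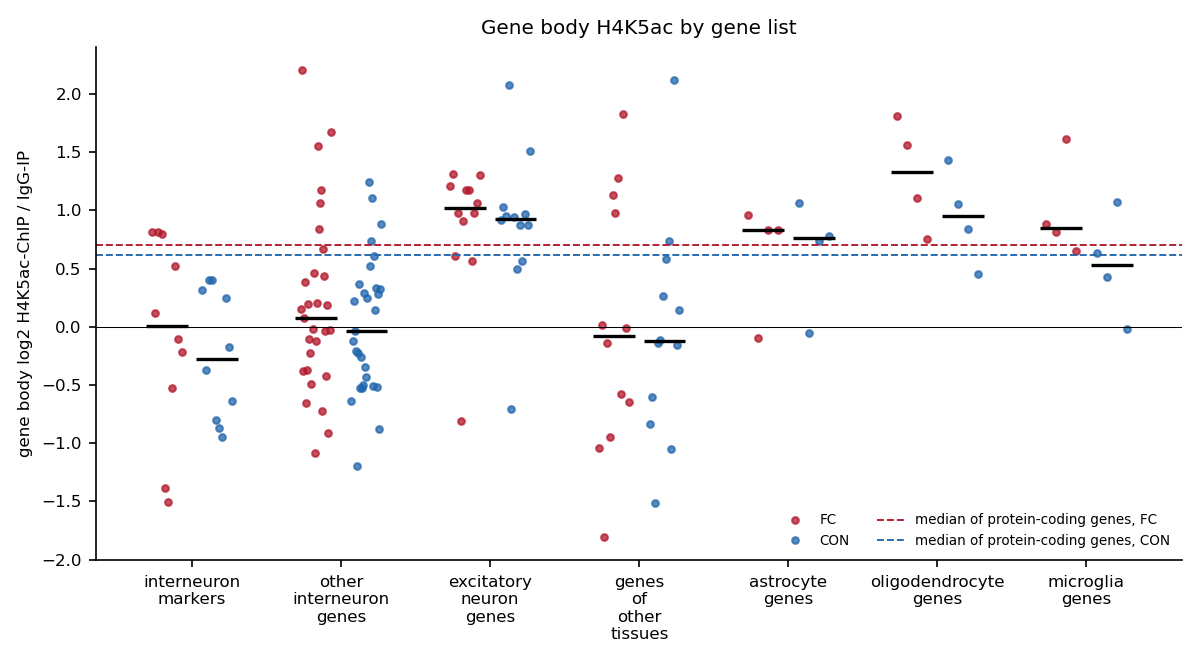
H4K5ac-ChIP over IgG-IP in the gene body as a log2 ratio (y axis) of each gene in 7 lists (x axis), in FC (red points) and CON (blue points), with black bars for list medians and broken lines for the medians of protein-coding genes. The interneuron markers and the other interneuron genes have medians near 0, and those of excitatory neurons have medians of 1.02 in FC and 0.93 in CON.

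Glial lists were small, and their medians over IgG-IP lay above those of the interneuron markers. The 4 astrocyte genes had medians of 0.83 in FC and 0.76 in CON, the 4 oligodendrocyte genes 1.33 and 0.95, and the 4 microglia genes 0.85 and 0.53, with 3, 3 and 2 genes at 1.5-fold in both groups. Gfap (0.96) and Aqp4 (-0.10) were the ends of the astrocyte list in FC, Mbp (1.81) and Mobp (0.75) those of the oligodendrocyte list, and Aif1 (1.61) and Tmem119 (0.65) those of the microglia list. Over input the microglia median in FC was -0.16, below the -0.11 of the interneuron markers. The medians are given as a description, and no test of the difference between lists was made.

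At the promoter, taken as the 5 kb upstream of the first TSS, 2 of the 10 genes reached 1.5-fold over IgG-IP in both groups, against 42.9% of protein-coding genes. These were Cck and Gad2. Upstream of Cck the density was 0.614 RPKM in FC and 0.695 in CON H4K5ac-ChIP against 0.206 and 0.303 in IgG-IP, and the log2 ratio was 1.57 (0.78 to 2.47) and 1.197 (0.57 to 1.88). Upstream of Gad2 the density was 0.709 and 0.367 RPKM in H4K5ac-ChIP against 0.454 and 0.194 in IgG-IP, and the ratio was 0.64 (0.07 to 1.2503) and 0.92 (0.12 to 1.81). Medians of promoters of the same GC content were 1.09 and 0.90 for Cck and 0.996 and 0.83 for Gad2, so that Gad2 lay below its median in FC and above it in CON. The IgG-IP values rested on 15 to 33 reads, and over input Cck was at -0.02 in FC and 0.62 in CON and Gad2 at 0.42 and 0.22, so that neither reached 1.5-fold in both groups. With 2 kb in place of 5 kb, Gad2 was at 1.38 and 0.46 over IgG-IP and Cck at 1.53 and 1.23. The end of Myo3a, which reaches to chr2:22473772 on the same strand, also lies within the 5 kb upstream of Gad2.

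Upstream of Sst and Lhx6 the mark was lower than in IgG-IP. Sst had 0.31 and 0.267 RPKM in H4K5ac-ChIP against 0.577 and 0.558 in IgG-IP, with ratios of -0.90 (-1.52 to -0.27) and -1.06 (-1.68 to -0.45). Lhx6 had 0.209 and 0.234 RPKM against 0.357 and 0.437, with ratios of -0.78 (-1.56 to 0.02) and -0.90 (-1.58 to -0.22). In 2 kb on each side of the TSS, Lhx6 was at 0.0101 in FC and -1.18 in CON. At Sst both H4K5ac-ChIP libraries lay below both IgG-IP libraries, as they did at Lhx6. The promoter of Sst, which holds the cAMP response element shown in capitals above, was the lowest of the 10 here and with 1 read per position and strand, but not in every setting. Over input Lhx6 was lower than Sst in both groups, at -1.63 and -1.26 against -0.98 and -0.68, and with a mapping score of at least 20 it was lower too, at -1.01 and -1.30 against -0.96 and -1.04.

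The other 6 promoters lay between these. Vip was at -0.55 (-1.26 to 0.18) and -0.62 (-1.27 to 0.04), above the medians of equally AT-rich promoters of -0.98 and -0.97. Pvalb was at -0.06 (-0.77 to 0.67) in FC and -0.90 (-1.58 to -0.20) in CON, although its gene body was above IgG-IP. In 2 kb on each side of the TSS, Pvalb was at 0.67 in FC and 0.61 in CON. Reln was at 0.17 (-0.45 to 0.83) and 0.10 (-0.54 to 0.77), Gad1 at 0.38 (-0.23 to 1.04) and 0.51 (-0.14 to 1.21), and Npy and Slc32a1 changed sign between the groups. Npy was at -0.23 (-0.81 to 0.36) and 0.53 (-0.12 to 1.23), and Slc32a1 at 0.18 (-0.42 to 0.81) and -0.12 (-0.75 to 0.52), all within counting error of 0. Neighbours in the order of the 10 promoters overlapped in their intervals throughout.

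For Gad1 the choice of TSS mattered. The annotation starts the gene 8970 bp upstream of the TSS of its longest coding transcript, and the 5 kb upstream of the latter TSS had 96 and 126 H4K5ac-ChIP reads, 23 and 44 IgG-IP reads, and ratios of 0.94 (0.27 to 1.67) in FC and 0.39 (-0.11 to 0.92) in CON. For 8 of the other 9 genes both TSS were the same base, and at Slc32a1 they were 9 bp apart.

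**Figure D3:**
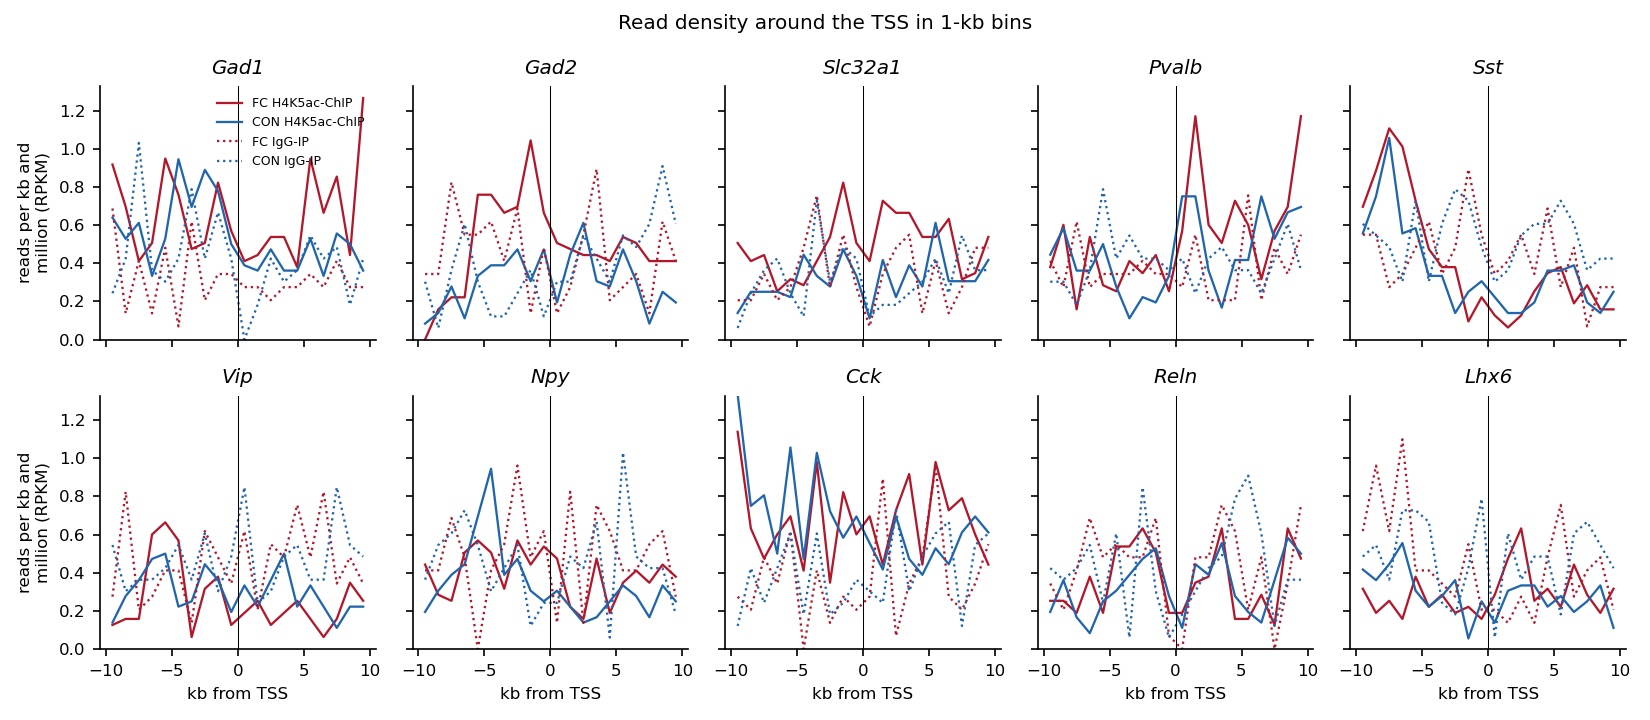
Read density in RPKM (y axis) in 1-kb bins within 10 kb of the TSS of the longest coding transcript (x axis, kb in the direction of transcription) for the 10 genes, with H4K5ac-ChIP as full lines and IgG-IP as dotted lines in FC (red) and CON (blue). Cck lies above IgG-IP in most bins, and Sst lies below IgG-IP around the TSS.

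The profiles by 1-kb bins held few reads per bin. In the kilobase before the TSS the 10 genes had 4 to 21 reads in FC H4K5ac-ChIP and 7 to 25 in CON H4K5ac-ChIP. H4K5ac-ChIP at Sst was at 0.222 RPKM in FC and 0.306 in CON in this bin, and at 1.11 and 1.06 between 7 and 8 kb upstream, where IgG-IP was at 0.275 and 0.485. Pvalb was higher downstream of its TSS than upstream, with 1.17 RPKM in FC and 0.751 in CON between 1 and 2 kb downstream and 0.443 and 0.195 between 1 and 2 kb upstream.

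The DNA on either side of the genes was compared in the same way, a measure added after the first results were seen. In windows from 10 to 60 kb beyond each end, both sides were below IgG-IP in both groups, with intervals below 0, for 5 of the 10 genes, namely Gad2, Sst, Vip, Npy and Reln, against 20.2% of protein-coding genes. Both sides were above IgG-IP in both groups for Cck and Lhx6, 2 of the 10, against 41.1%. The lowest flank in CON was that upstream of Gad2, at -1.77 (-2.03 to -1.51), with -1.38 (-1.65 to -1.12) in FC, and the lowest in FC was that downstream of Vip. The highest in FC was that downstream of Cck, at 1.68 (1.47 to 1.89). The ratios of the Gad2 gene body and promoter lay above those of both flanks, although in CON the intervals of the gene body and the downstream flank overlapped. Lhx6, with flanks of 0.39 to 0.56, lay below both of its own in promoter and gene body, with intervals that did not overlap. Vip, Npy and Sst had ratios below 0 in gene body, promoter and flanks in FC, and in CON the promoter of Npy was the exception.

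**Figure D4:**
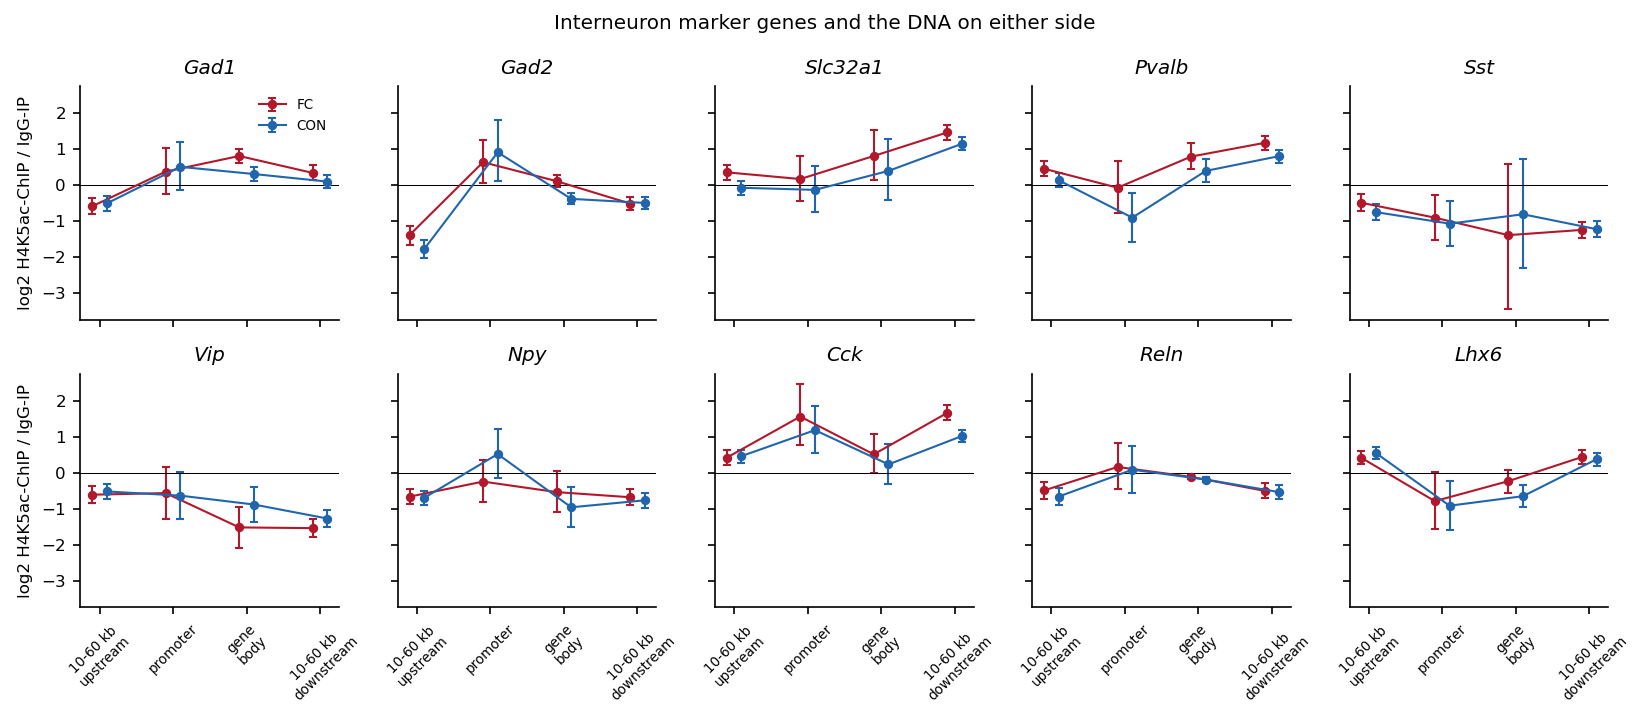
H4K5ac-ChIP over IgG-IP as a log2 ratio (y axis) in the windows from 10 to 60 kb upstream, the promoter, the gene body and the windows from 10 to 60 kb downstream (x axis) for the 10 genes, FC in red and CON in blue, with exact 95% counting intervals. Gad2 lies above both of its flanks, Lhx6 below both, and Vip and Sst are below 0 at all 4 places.

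FC and CON H4K5ac-ChIP were then compared directly, which is the comparison the study was designed for. A gene was counted as higher or lower from a log2 ratio of 0.322 in either direction. Over the gene body, 4 of the 10 genes were higher in FC by this limit, against 10.8% of protein-coding genes with at least 20 reads, and 2 were lower, against 4.06%. The 4 were Slc32a1, Cck, Gad2 and Npy, with Lhx6 (0.320) and Gad1 just outside, and the 2 were Sst, with under 20 reads, and Vip. With 1 read per position and strand, Gad2 (0.38) and Slc32a1 (0.77) were still higher by the limit, Vip (-0.56) was still lower, and Cck (0.24) and Npy (0.28) were not counted, against shares of 9.52% higher and 3.18% lower. With a mapping score of at least 20, 6 genes were higher and 2 lower, against 11.4% and 4.34%. Only 1 of those 2 lower genes had enough reads to be part of that share. The median log2 FC over CON of the 10 was 0.32, beside 0.04 for protein-coding genes, 0.07 for the other interneuron genes and 0.11 for genes of excitatory neurons. The intervals of 6 genes lay above 0, against 15.7% of protein-coding genes, and those of 0 genes lay below, against 9.92%.

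Slc32a1 had the largest difference before any subtraction, with 88 reads in FC and 49 in CON, a log2 ratio of 1.03 (0.51 to 1.57) and a place at the 99.2 percentile of protein-coding genes. IgG-IP moved the same way at Slc32a1, by 0.62 (-0.35 to 1.61), and input by 0.49 (0.04 to 0.96), and their part in the difference was not tested. After subtracting the IgG-IP difference Slc32a1 was at 0.41, below Gad1 (0.50) and Gad2 (0.49). Gad2 was at 0.39 (0.26 to 0.52) and Gad1 at 0.31 (0.18 to 0.44), with IgG-IP at -0.10 (-0.29 to 0.08) and -0.19 (-0.43 to 0.05). All 3 genes of GABA synthesis and loading were therefore higher in the FC than in the CON H4K5ac-ChIP library beyond counting error. They differed in input, where Gad2 was at -0.11 (-0.23 to 0.00) and Gad1 at 0.47 (0.34 to 0.60). The GC-matched medians of the input difference were 0.43 for Gad1, -0.04 for Gad2 and 0.74 for Slc32a1, each within the interval of its gene. After subtracting the input difference, Gad2 was at 0.50, Slc32a1 at 0.54 and Gad1 at -0.15, so the direction at Gad1 turned.

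Among the other genes, Cck was at 0.42 (0.04 to 0.81), Lhx6 at 0.32 (0.05 to 0.59) and Reln at 0.06 (0.00 to 0.11). Npy was at 0.37 (-0.16 to 0.89) and Pvalb at 0.17 (-0.06 to 0.40), and both intervals held 0. Vip was at -0.52 (-1.06 to 0.01) and Sst at -0.81 (-2.71 to 0.87), the latter from 5 and 10 reads. The lower values of Vip and Sst were thus not separated from 0 at this depth. Input differed between the groups at Cck by 0.81 (0.41 to 1.22), at Pvalb by 0.72 (0.50 to 0.96) and at Lhx6 by 0.49 (0.31 to 0.68). It also differed at Vip by -0.53 (-0.89 to -0.17) and at Sst by 1.14 (0.15 to 2.22), the latter from 34 and 12 reads. Each of these intervals held the corresponding GC-matched median (0.55, 0.65, 0.60, -0.46 and 0.62). After subtracting the input difference, Cck was at -0.38, Pvalb at -0.56, Lhx6 at -0.17 and Vip at 0.00887, so the direction turned at these 4 genes too, and the median of the 10 was -0.0725. Input itself had a median FC over CON of 0.31 over protein-coding genes, and after its subtraction 42.7% of them were lower in FC by the limit and 10.6% higher. In H4K5ac-ChIP these GC-matched medians were smaller, from -0.11 to 0.24 over the 10 genes, and the intervals of Gad1, Gad2, Slc32a1 and Reln lay above theirs.

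**Figure D5:**
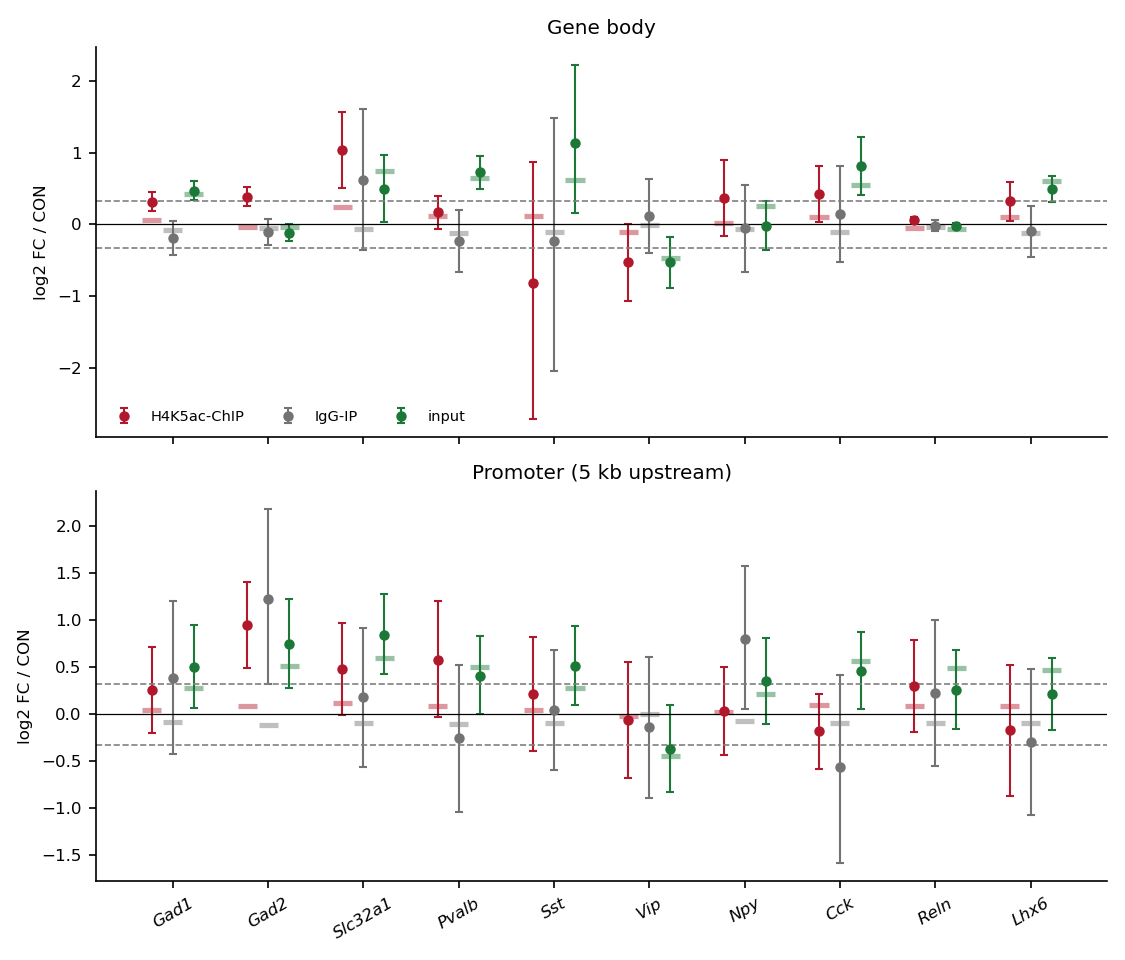
Log2 ratio of FC over CON (y axis) at the 10 genes (x axis) in H4K5ac-ChIP (red), IgG-IP (grey) and input (green), over the gene body (top) and promoter (bottom), with exact 95% counting intervals, GC-matched medians as pale dashes and broken lines at a log2 of 0.322 in either direction. Slc32a1 is the highest gene body in H4K5ac-ChIP and Gad2 the highest promoter, where IgG-IP and input of Gad2 are also higher in FC.

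Within Gad1 the difference was uneven. Of 10 equal parts of the gene body, parts 4 and 5 had 123 and 127 reads in FC against 72 and 76 in CON, with log2 FC over CON of 0.96 (0.53 to 1.40) and 0.93 (0.51 to 1.36). The other 8 parts lay between -0.25 and 0.63. In parts 4 and 5 input was also higher in FC, at 0.626 and 0.573 RPKM against 0.374 and 0.484 in CON. This was not particular to them. In parts 2 and 3 input was at 0.617 and 0.711 in FC against 0.317 and 0.386, where H4K5ac-ChIP FC over CON was -0.16 and 0.39. Only in part 7 was input lower in FC, at 0.443 against 0.478. These counts keep repeated reads, and the Gad1 regions found below with every deposited read lie in parts 4 and 5. Within Gad2 the 10 parts ran from -0.07 to 0.78, and 9 of them were above 0.

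At the promoter, 3 of the 10 genes were higher in FC by the same limit, against 17.5% of protein-coding genes, and 0 were lower, against 10.3%. Gad2 had 112 reads in FC and 66 in CON, a log2 ratio of 0.95 (0.50 to 1.41), and was the only one of the 10 with an interval above 0, against 8.37% of protein-coding genes, while 0 lay below, against 3.62%. The same 5 kb were higher in FC in IgG-IP, by 1.23 (0.32 to 2.19), and in input, by 0.75 (0.28 to 1.23). IgG-IP thus moved more than H4K5ac-ChIP, and less the change in IgG-IP the difference at Gad2 turned to -0.28, while less that in input it was 0.20. Pvalb at 0.58 (-0.03 to 1.21) and Slc32a1 at 0.48 (-0.01 to 0.97) were the other 2, and the remaining 7 ran from -0.18 at Cck to 0.30 at Reln. Gad1 was at 0.26 before its first TSS and at -0.21 before that of its longest transcript, and Sst was at 0.22 in 5 kb and at -0.81 in 2 kb. The median was 0.24, beside 0.06 for protein-coding genes. The counts rested on H4K5ac-ChIP alone. Less the change in IgG-IP, 2 promoters were higher, Pvalb and Cck, and 1 was lower, Npy (35.4% and 20.9% of protein-coding genes). Gad2 and Slc32a1 were then no longer counted. Less the change in input, 0 were higher and 3 were lower, Slc32a1, Cck and Lhx6 (17.5% and 39.3%), with a median of -0.27.

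A scan for regions (300-bp windows, 1 read per position and strand, one-sided Poisson p below 1e-05 against the local rate), which takes the p limit of the study's peak calls but is not the same caller, found few at these genes. A region of FC over CON H4K5ac-ChIP in the gene body or the 5 kb upstream was found for 0 of the 10, against 3.42% of protein-coding genes, and one of CON over FC for 1 of 10, against 2.48%. Regions of H4K5ac-ChIP over IgG-IP were found at 0 of 10 genes in FC, against 36.5%, and at 1 of 10 in CON, against 38.9%. Long genes offer more windows, and the single gene was Reln, the longest of the 10. The same 300 bp were found against FC and against IgG-IP.

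The Reln region is shown because it is the single place in these 10 genes that passed the scan. It spans chr5:21819201-21819500 in an intron, 31.2 kb downstream of the TSS, and is written 5′ to 3′ on the minus strand, the strand of the gene, with its CpG in capitals.
Reln intron: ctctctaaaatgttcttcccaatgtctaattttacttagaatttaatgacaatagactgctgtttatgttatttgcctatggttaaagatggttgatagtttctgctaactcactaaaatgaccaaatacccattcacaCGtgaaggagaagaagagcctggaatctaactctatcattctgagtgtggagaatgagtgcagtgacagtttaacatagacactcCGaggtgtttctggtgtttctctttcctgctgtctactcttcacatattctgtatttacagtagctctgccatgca

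The region holds 2 CpG in 300 bases, 38% GC, and none of the 3 motifs. It was overlapped by 20 reads in CON H4K5ac-ChIP and 4 in FC H4K5ac-ChIP, beside 4 and 2 reads in CON and FC IgG-IP and 6 and 7 in CON and FC input. CON H4K5ac-ChIP was the single high library of the 6. After shifting the reads and keeping 1 per position and strand, 18 in CON stood against 2 in FC. It did not pass at a Poisson p of 1e-07.

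When every deposited read was kept in the scan, regions of FC over CON were found at 4 of the 10 genes, against 21.1% of protein-coding genes. Gad1 had 2, at 18.3 and 23.5 kb downstream of its first TSS, and Gad2 had 2, at 2.02 kb upstream and 68.05 kb downstream. Slc32a1 had 1 at 1.14 kb upstream, and Reln had 2 at 35.5 and 400.6 kb downstream. In the other direction, CON over FC, a region was found at Reln around the one shown above (chr5:21819151-21819600). It held 31 reads in CON and 5 in FC. The first region of Gad1 held 31 reads in FC and 8 in CON, which fell to 19 and 8 with 1 read per position and strand, and input there had 26 reads in FC and 7 in CON. With 1 read per position and strand, FC reads fell in all 7 regions of FC over CON and CON reads by at most 1. None of the 7 had passed the scan with such reads, so a fall in FC was built into their selection. Input was higher in FC at the first region of Gad1 and at both of Reln (25 reads in FC and 8 in CON at 35.5 kb, 17 and 6 at 400.6 kb). The parts of repeated reads and of input were not tested.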

How the data were processed

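H4K5ac-ChIP, IgG-IP and input libraries of FC and CON hippocampus were analysed, 1 library each. The authors sequenced SOLiD reads of up to 50 bp, used Bioscope for alignment to mm9, and deposited each aligned read as a BED record. The score column of the deposited records is the mapping quality of the authors' alignment (4 to 100 in the files) and is not a coverage. The study's methods name 3 hippocampal samples per group, and 1 library per group and antibody was used here.

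Reads overlapping the gene body, from first TSS to last TTS, or the 5 kb upstream by at least 1 bp were counted with GENCODE annotation of the same build. Ratios were scaled by total reads, with exact (Clopper-Pearson) 95% intervals. PCR copies carry no molecular identifiers, so intervals cover counting error only. Fold limits were 1.5 over IgG-IP and a log2 of 0.322 between groups, and the background was protein-coding genes with at least 20 reads. The region scan shifted reads by 75 bp and took the highest of the genome-wide and local (1, 5 and 10 kb) rates. Counting and scan were tested on simulated data. Every marker gene is named, and of other lists the highest and lowest gene in FC. The genes and lists were chosen with earlier results of these data known. Alternatives were input as control, other promoter windows, 1 read per position and strand, a score of at least 20, GC matching and all annotated genes. Upstream sequences were read from the mm9 genome. Python 3.11.15, NumPy 2.4.6, pandas 2.3.3, SciPy 1.17.1 and matplotlib 3.10.9 were used.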

Additional observations from a re-analysis of the deposited data

Results flagged for a closer look

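At 3 places H4K5ac-ChIP relative to IgG-IP (log2) was above 0 in one group and below 0 in the other, with a single library pair per group. The ratio in FC less that in CON was 0.49 over the gene body of Gad2 (0.12 and -0.37), 0.30 upstream of Slc32a1 (0.18 and -0.12) and -0.76 upstream of Npy (-0.23 and 0.53). The differences between the groups were not tested, since each group had 1 library of each kind. At the Npy promoter H4K5ac-ChIP was at 0.468 RPKM in FC and 0.456 in CON, while IgG-IP was at 0.55 and 0.315.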

How the results depend on the processing

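Of the values of single genes under other settings, 277 stayed within their counting interval, 45 moved beyond it and 6 changed sign. These 6 had passed a fold limit, which for ratios over IgG-IP meant in both groups. Sign changes at genes past the limit in 1 group only were not among the 6. Examples were the Pvalb gene body in FC (0.80 over IgG-IP, -0.13 over input) and Pvalb upstream in CON (-0.90, and 0.61 with 2 kb on each side of the TSS). The 6 were Cck upstream in FC with input as control (-0.0187), Lhx6 upstream in FC with 2 kb on each side of the TSS (0.0101), Vip (0.00887) and Cck (-0.38) in gene body FC over CON after subtracting that of input, and in promoter FC over CON Gad2 after subtracting IgG-IP (-0.28) and Slc32a1 after subtracting input (-0.37). Subtracting the GC-matched medians moved the gene body medians over IgG-IP to -0.59 in FC and -0.76 in CON, and subtracting input moved the median FC over CON to -0.0725 for gene bodies and -0.27 for promoters. The number of promoters at 1.5-fold in both groups fell from 2 to 0 with input as control (24.3% of protein-coding genes), and to 1 with a 2-kb promoter (55.3%), with 2 kb on each side of the TSS (55.1%) or with 1 read per position and strand (40.3%). With the 2-kb promoter this gene was Cck. With 2 kb on each side of the TSS it was Pvalb, at 0.67 in FC and 0.61 in CON. There Cck in FC (0.581) and Gad2 in CON (0.28) fell short of the limit. With 1 read per position and strand, 2 gene bodies were higher in FC by the limit and 1 was lower (9.52% and 3.18% of protein-coding genes), and with a score of at least 20 there were 6 and 2 (11.4% and 4.34%). Subtracting IgG-IP gave 6 higher and 2 lower (22.9% and 8.29%), and subtracting input gave 3 and 3 (10.6% and 42.7%). These shares cover genes with enough reads. Among the lower gene bodies, those with enough reads were 1 of 2 with the score limit, 1 of 2 less IgG-IP and 2 of 3 less input. At the promoter, subtracting IgG-IP gave 2 higher and 1 lower (35.4% and 20.9%) and subtracting input gave 0 and 3 (17.5% and 39.3%). With a 2-kb promoter, 5 promoters were higher and 1 was lower, against 26.5% and 14.5% of protein-coding genes. Genes with a region of FC over CON numbered 4 with all deposited reads (21.1% of protein-coding genes), and those with a region of CON over FC numbered 0 at a Poisson p of 1e-07 (0.246% of protein-coding genes). The causes were not tested, and fewer reads remain with 1 read per position and strand. The number of gene bodies at 1.5-fold in both groups was 0 with input as control (18.9% of protein-coding genes), with 1 read per position and strand (44.0%), with a score of at least 20 (47.0%), without the first 2 kb (44.4%) and less the GC-matched medians (7.54%). No paired analysis was possible because each group had 1 library per antibody. The promoter of the longest coding transcript and the subtraction of IgG-IP or input at the promoter were added for FC over CON after the data were seen. IgG-IP depth limits the short genes, with 6 to 64 reads over the gene bodies of Sst, Vip, Npy, Cck and Slc32a1 in FC.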
